A study of Homo sapiens with 6 samples.

Results

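The 10 genes described here report on signalling through the kinase ERK: the phosphatases DUSP4, DUSP5 and DUSP6, the Sprouty proteins SPRY1, SPRY2 and SPRY4, the Spred proteins SPRED1 and SPRED2, and the output genes ETV5 and PHLDA1. They were taken by symbol from the 57290 genes of the deposited tables, and each matched 1 gene. The human myeloma line KMM1 was transduced with a lentivirus expressing TAZ (3 libraries) or with the empty vector WPI, the control (3 libraries). All cells therefore received a lentivirus, and polyadenylated RNA was taken 4 days after transduction. TAZ is a co-activator of TEAD transcription factors whose gene is WWTR1. Which promoter drives the transgene the sources used here do not state. Nor do the labels name separate cultures for the libraries, and p-values then measure only the spread between samples, which may be technical. Control library 3 stood apart from the other 5 libraries over all tested genes, at -74.8 on the second principal component (23.4% of the variance) against -1.42 to 37.6, so the main results are also given without it.

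Ligand-bound receptor tyrosine kinases activate RAS, which switches on the kinases RAF, MEK and ERK in turn. ERK then induces its own inhibitors: dual-specificity phosphatases remove its activating phosphates, Sprouty proteins act between receptor and RAS, and Spred proteins bring neurofibromin to RAS. Levels of these transcripts are widely used as a readout of ERK output, and mutations that activate RAS are frequent in multiple myeloma.

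PHLDA1 was 2.54-fold higher and DUSP4 2.34-fold lower in the TAZ libraries than in the controls, as ratios of mean level, and these were the members that passed the test. The other 8 members did not pass, among them DUSP6, SPRY2 and SPRY4, and the abundant DUSP5 stood at nearly equal means. Levels are TPM, an abundance corrected for transcript length, summed over each gene's transcripts and scaled between libraries. All 10 members had a mean above 1 TPM in each group and so were tested with the other genes, 19390 in all (limma on log2(scaled TPM + 1), Benjamini-Hochberg adjustment over all tested genes, threshold 0.05). Of these genes 3.21% passed, 2.25% as higher and 0.964% as lower in the TAZ libraries; of the 10 members 1 passed as higher and 1 as lower. The TAZ and control libraries did not overlap for 6 of the 10 members, 4 higher and 2 lower, while 24.9% of all tested genes showed no overlap, 10.1% as higher and 14.8% as lower. In the TPM as deposited 4 members were higher and 1 was lower without overlap. The median log2 difference of the members was 0.185, against -0.05 over all tested genes.

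All 11 promoter windows found for the members were searched for binding motifs of factors linked to TAZ or ERK. Shown are those of PHLDA1, the member that passed as higher, and of SPRED2, the only member with AP-1 matches. SPRED2 did not pass the test. Its 3 TAZ libraries lay above all controls, but so did those of SPRY1 and SPRED1, whose windows are not shown. The sequences are RefSeq windows of 300 bases (250 before to 50 after a start site, assembly GRCh38.p14, a different build from the hg19 of the expression values), written 5′ to 3′ on the gene's minus strand. Capitals mark matches to any of 4 motifs: CATTCC (TEAD), TGANTCA (AP-1), CCGGAAG (ETS) and CACGTG (E-box), each on both strands.
PHLDA1, chr12:76031727-76032026: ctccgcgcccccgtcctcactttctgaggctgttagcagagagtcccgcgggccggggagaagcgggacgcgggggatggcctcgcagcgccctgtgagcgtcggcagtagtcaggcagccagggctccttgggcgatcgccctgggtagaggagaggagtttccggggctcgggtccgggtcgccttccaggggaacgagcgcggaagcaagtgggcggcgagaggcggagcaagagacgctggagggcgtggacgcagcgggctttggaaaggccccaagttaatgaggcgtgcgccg
SPRED2 upstream start, chr2:65432550-65432849: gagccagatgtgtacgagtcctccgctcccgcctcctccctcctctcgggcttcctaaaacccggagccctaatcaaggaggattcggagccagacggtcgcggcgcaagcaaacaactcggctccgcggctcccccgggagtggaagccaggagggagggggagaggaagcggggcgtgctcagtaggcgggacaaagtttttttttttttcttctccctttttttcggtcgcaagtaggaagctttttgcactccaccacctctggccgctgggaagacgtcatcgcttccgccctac
SPRED2 downstream start, chr2:65366729-65367028: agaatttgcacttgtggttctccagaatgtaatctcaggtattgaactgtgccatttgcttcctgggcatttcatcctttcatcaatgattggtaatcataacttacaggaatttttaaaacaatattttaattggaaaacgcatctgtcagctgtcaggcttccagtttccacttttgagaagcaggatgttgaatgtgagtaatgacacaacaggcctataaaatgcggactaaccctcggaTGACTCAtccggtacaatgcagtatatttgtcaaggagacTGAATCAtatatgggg
The downstream SPRED2 window held 2 AP-1 matches, the TGACTCA that begins at base 245 and the TGAATCA that begins at base 285, counted from 1 at the window's 5′ end. The PHLDA1 window and the upstream SPRED2 window held none of the 4 motifs. By transcript ID in GENCODE 29 on GRCh38, the transcripts that start nearest the downstream SPRED2 start, ENST00000474228.1 and ENST00000443619.2, were listed at 0 in all 6 libraries. ENST00000356388.4, with 94.2% to 97.5% of the SPRED2 TPM, starts 422 bases downstream of the upstream start. The leading PHLDA1 transcript, ENST00000266671.5, starts 2156 bases upstream of the start site of the PHLDA1 window, outside it. The shorter ENST00000602540.1 starts 172 bases downstream of that site, also outside the window. It was listed at 0 except in TAZ library 1, where it was at 19.7 scaled TPM. Windows were found for 7 of the 10 members, 11 in all; DUSP4, DUSP5 and ETV5 had no entry. Beyond SPRED2, 1 SPRY1 window held an ETS match and the SPRY4 window a TEAD match. The same motifs occurred in 14.03% (TEAD), 7.71% (AP-1), 10.3% (ETS) and 7.26% (E-box) of 35116 windows of equal length. A match describes the letters of the window and does not show that a factor was bound.

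The libraries held 1099.95 to 2033 megabases of aligned sequence. WWTR1 was at 1.21 to 2.35 scaled TPM in the controls, against 138 to 365 in the TAZ libraries, highest in TAZ library 1. Scaling sets the zero of every difference: without it the median log2 difference over all tested genes moved from -0.05 to 0.17. All 8 plasma cell markers (SDC1, TNFRSF17, IRF4, XBP1, PRDM1, CD38, MZB1 and SLAMF7) had group means above 1 scaled TPM, with summed levels of 1183 to 1963 scaled TPM in the controls, against 1101 to 1281 in the TAZ libraries. SDC1, IRF4 and SLAMF7 fell (limma adjusted p = 0.00521, 0.0421 and 0.0302), but the count of 3 was 1 without scaling, with quantile normalization, with no filter on low values, and without control library 2 or any 1 of the TAZ libraries, and 0 with the replicate number as a block. Of 4 epithelial markers (EPCAM, KRT8, KRT18 and CDH1), KRT8 and KRT18 passed as higher and none as lower. KRT8, which carried most of the list's sum, was at 167 ± 45.5 scaled TPM in the controls, against 1337 ± 762 in the TAZ libraries, and did not pass without control library 1 or control library 2, with the block or with no filter. KRT18 had a control mean of 0.284 and so was tested through the TAZ libraries. CDH1 was at 48.7 ± 10.5 and 25.2 ± 7.08, lower without overlap (limma adjusted p = 0.161), and EPCAM was at 53.3 ± 27.1 and 49.1 ± 5.91. The sum of the 4 was 194 to 322 in the controls, against 957 to 2294 in the TAZ libraries. The sum of the 5 fibroblast markers was 2.12 to 2.61 and 6.40 to 7.14, that of the 4 myeloid markers 3.45 to 5.24 and 1.47 to 1.90, and that of the 4 T and NK cell markers 1.63 to 2.14 and 2.17 to 2.34, with NKG7 listed at 0 in all libraries. Among the fibroblast markers only DCN passed, as higher (0.113 and 3.39, limma adjusted p = 0.00298), tested through the TAZ libraries. COL1A2 and COL3A1 were also higher but under 1 scaled TPM, while COL1A1 (1.79 and 1.73) and PDGFRB (0.342 and 0.379) were close. Among the myeloid markers only CD14 passed, as lower (4.23 and 1.51, limma adjusted p = 0.0435, in 5 of 15 other settings). CSF1R, LYZ and FCGR3A had group means of 0.146 or less. The part of these marker differences in the results below was not tested, and in bulk RNA fewer cells of a type and less RNA per cell cannot be told apart.

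By mean level over all 6 libraries, the phosphatases DUSP5 and DUSP4 were the most abundant members (in the TAZ libraries alone SPRED2, at 80.5 scaled TPM, and DUSP4, at 79.8, were close), and of the 3 phosphatases only DUSP4 passed the test. DUSP4 (ENSG00000120875.4, chromosome 8, 29190581 to 29208185, minus strand, hg19), a nuclear phosphatase of ERK and related kinases, was at 186, 166 and 208 scaled TPM in control libraries 1 to 3 and at 84.2, 75.7 and 79.5 in TAZ libraries 1 to 3. The highest TAZ library, at 84.2, lay far below the lowest control, at 166, and the groups did not overlap. The means were 187 ± 20.6 and 79.8 ± 4.26 (SD, n = 3), a log2 difference of -1.21 ± 0.16 (SE; limma adjusted p = 0.0115). The difference stayed past the threshold in 13 of 16 other settings. With TAZ library 2 or TAZ library 3 left out it was -1.18 and -1.21, and the adjusted p was 0.0814 and 0.0649. Without control library 3 it was -1.14 (adjusted p = 0.0253).

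DUSP5 (ENSG00000138166.5, chromosome 10, 112257596 to 112271302, plus strand), a nuclear phosphatase selective for ERK, was the most abundant member. It stood at 493, 486 and 487 scaled TPM in the controls, against 505, 496 and 476 in the TAZ libraries. These groups overlapped, and the spread within them was small, with a coefficient of variation of 0.776% and 3.05%. The log2 difference was 0.01 ± 0.15, with a 95% confidence interval of -0.35 to 0.37 (limma adjusted p = 0.981). DUSP6 (ENSG00000139318.7, chromosome 12, 89741009 to 89747048, minus strand), the cytoplasmic ERK phosphatase, was far lower, at 9.67, 9.56 and 6.40 in the controls, against 8.90, 9.58 and 10.2 in the TAZ libraries. Control library 3 was the low value, and the groups overlapped. The log2 difference was 0.17 ± 0.20, with an interval of -0.31 to 0.64 (adjusted p = 0.685).

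**Figure D1:**
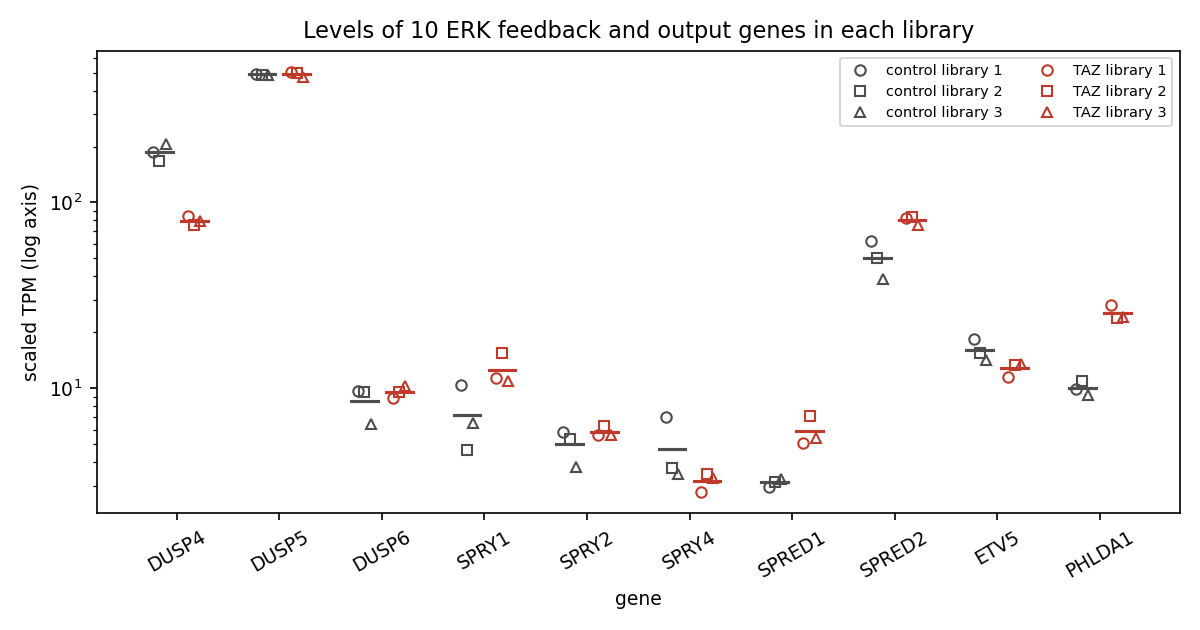
Scaled TPM of each gene (y axis, log scale) in each of the 6 libraries, with open symbols for libraries, bars for group means, grey for control and red for TAZ. DUSP4 and PHLDA1 show the clearest separation, in opposite directions, while the DUSP5 libraries lie between 476 and 505.

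The ratio of DUSP4 to DUSP5 within a library does not depend on scaling between libraries. It was 0.377, 0.342 and 0.426 in the controls, against 0.167, 0.153 and 0.167 in the TAZ libraries. The groups did not overlap, with means of 0.382 ± 0.0419 and 0.162 ± 0.00830 (n = 3; two-sided exact permutation test, p = 0.1, which is the smallest possible p for 3 against 3). Summed over the 3 phosphatases, the level was 662 to 701 scaled TPM in the controls, against 565 to 598 in the TAZ libraries, most of it DUSP5.

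None of the 3 Sprouty genes, whose proteins restrain signalling from receptor tyrosine kinases, passed the test. SPRY1 (ENSG00000164056.6, chromosome 4, 124317950 to 124324910, plus strand) was at 10.4, 4.68 and 6.50 scaled TPM in the controls, against 11.4, 15.5 and 10.98 in the TAZ libraries. The groups did not overlap, but control library 1 lay close to the lowest TAZ library. Its log2 difference was 0.77 ± 0.29 (limma adjusted p = 0.242). SPRY2 (ENSG00000136158.6, chromosome 13, 80910111 to 80915086, minus strand) was at 5.84, 5.35 and 3.77 in the controls, against 5.58, 6.30 and 5.59 in the TAZ libraries, and the groups overlapped. SPRY2 had a log2 difference of 0.20 ± 0.19 (interval -0.26 to 0.67, adjusted p = 0.606). SPRY4 (ENSG00000187678.8, chromosome 5, 141689992 to 141706020, minus strand) was at 7.01, 3.71 and 3.45 in the controls, against 2.76, 3.46 and 3.28 in the TAZ libraries. Control library 1 was the high value, and the other controls lay near the TAZ libraries. The log2 difference of SPRY4 was -0.41 ± 0.26 (interval -1.04 to 0.23, adjusted p = 0.458).

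Both Spred genes were higher in every TAZ library than in any control, without passing the test. SPRED1 (ENSG00000166068.8, chromosome 15, 38544527 to 38649450, plus strand), the gene mutated in Legius syndrome, was at 2.96, 3.15 and 3.24 scaled TPM in the controls, against 5.06, 7.11 and 5.43 in the TAZ libraries. The controls were close together and TAZ library 2 was the highest. The log2 difference was 0.73 ± 0.18 (limma adjusted p = 0.0998). When aligned bases per gene replaced TPM, a setting chosen after the data were seen, it was 0.85 ± 0.17 (adjusted p = 0.0422). SPRED2 (ENSG00000198369.5, chromosome 2, 65537985 to 65659771, minus strand), which also inhibits the step from RAS to RAF, was far more abundant, at 62.4, 50.6 and 38.7 in the controls, against 82.2, 83.3 and 76.0 in the TAZ libraries. The controls spread widely, with control library 3 lowest, and the TAZ libraries were close together. SPRED2 differed by 0.69 ± 0.21 (interval 0.19 to 1.19, adjusted p = 0.168), and by 0.50 without control library 3.

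PHLDA1 (ENSG00000139289.9, chromosome 12, 76419227 to 76427712, minus strand), which encodes a pleckstrin homology-like domain protein, was at 9.88, 10.98 and 9.15 scaled TPM in the controls. It was at 28.2, 23.9 and 24.1 in TAZ libraries 1 to 3, each more than 2-fold above the highest control. The means were 10.01 ± 0.922 and 25.4 ± 2.44 (SD, n = 3), a log2 difference of 1.26 ± 0.16 (limma adjusted p = 0.00936). PHLDA1 passed in 13 of 16 other settings. Without TAZ library 2 or TAZ library 3 the difference was at least 1.29 and the adjusted p was 0.0543 and 0.0510, and without control library 3 it was 1.20 (adjusted p = 0.0231). ETV5 (ENSG00000244405.3, chromosome 3, 185764097 to 185828107, minus strand), an ETS transcription factor of the PEA3 group, was at 18.4, 15.4 and 14.2 in the controls, against 11.5, 13.4 and 13.5 in the TAZ libraries. Its groups did not overlap after scaling, but they overlapped in the TPM as deposited. ETV5 had a log2 difference of -0.30 ± 0.17 (adjusted p = 0.402), or -0.05 without scaling.

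**Figure D2:**
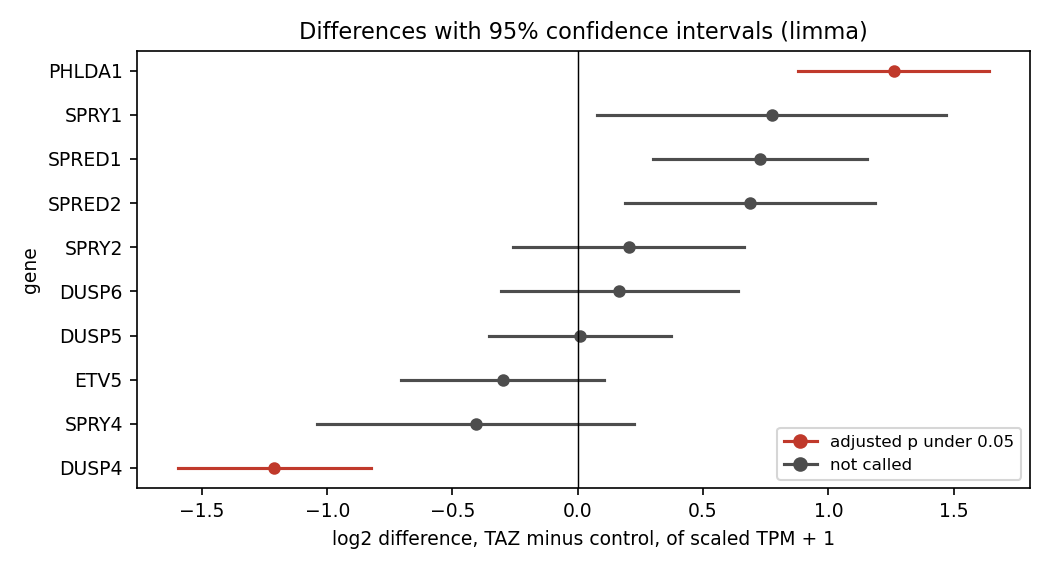
Log2 difference of scaled TPM + 1, TAZ minus control (x axis), for each gene (y axis), with points for limma estimates, lines for 95% confidence intervals and red for adjusted p under 0.05. PHLDA1 at 1.26 and DUSP4 at -1.21 lie at opposite ends, and DUSP5 lies at 0.01.

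By level per transcript length, the members in the controls ran from DUSP5 through DUSP4 and SPRED2 to ETV5, with no overlap between neighbours. From PHLDA1 through DUSP6, SPRY1, SPRY2 and SPRY4 each neighbour overlapped the next, and SPRED1 was lowest. In the TAZ libraries SPRED2 (80.5 ± 3.94) and DUSP4 (79.8 ± 4.26) overlapped. PHLDA1 there stood apart from ETV5 (12.8 ± 1.13), which overlapped SPRY1 (12.6 ± 2.48). Over the 6 libraries, Pearson's r on the log2 scale was -0.98 between DUSP4 and PHLDA1 and -0.95 between DUSP4 and SPRED1. It was 0.92 between DUSP6 and SPRY2 and 0.93 between ETV5 and SPRY4. These points share 2 groups, library and depth, so the values describe the 6 libraries only. The mean standardized level of the members was 0.40, -0.28 and -0.76 in the controls, against 0.15, 0.46 and 0.03 in the TAZ libraries. The tested genes most like that mean were IDS (r = 0.994), RAB3B (0.992) and MXD1 (0.992), and none of these 3 passed the test.

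Which exons carried the values was read from the deposited read depth of each gene's most abundant transcript, brought to the scale of the scaled TPM. DUSP4 rested on ENST00000240100.2, which held 99.0% to 99.8% of its TPM. The last of its 4 exons (29190581 to 29194928), 4348 bases long, had 178, 169 and 184 in the controls, against 80.7, 76.4 and 80.0 in the TAZ libraries. In exons 1 and 3 all TAZ libraries likewise lay below all controls. Exon 2 was listed at 0 in all TAZ libraries and in control library 2, but at 320 and 291 in control libraries 1 and 3. The second of the 2 PHLDA1 exons (76419227 to 76423872) had 7.46, 9.02 and 6.41 in the controls, against 14.3, 19.4 and 20.6 in the TAZ libraries.

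PHLDA1 reads were assigned unevenly to transcripts. ENST00000266671.5 held all of its TPM in 5 libraries but 30% in TAZ library 1, where the shorter ENST00000602540.1 was at 19.7 scaled TPM. By aligned bases per gene PHLDA1 differed by 1.22 ± 0.14 on the log2 scale (limma adjusted p = 0.00461). Aligned bases were summed from the coverage of the same transcripts, so they are not free of that assignment. SPRY1 was assigned unevenly too: ENST00000394339.2 was at 8.997, 0 and 4.53 in the controls, against 6.66, 10.5 and 6.26 in the TAZ libraries. In control library 2, where that transcript was at 0, SPRY1 had 3174 aligned bases, against 20883 and 7044 in control libraries 1 and 3. By aligned bases SPRY1 differed by 0.98 ± 0.59 (adjusted p = 0.402).

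**Figure D3:**
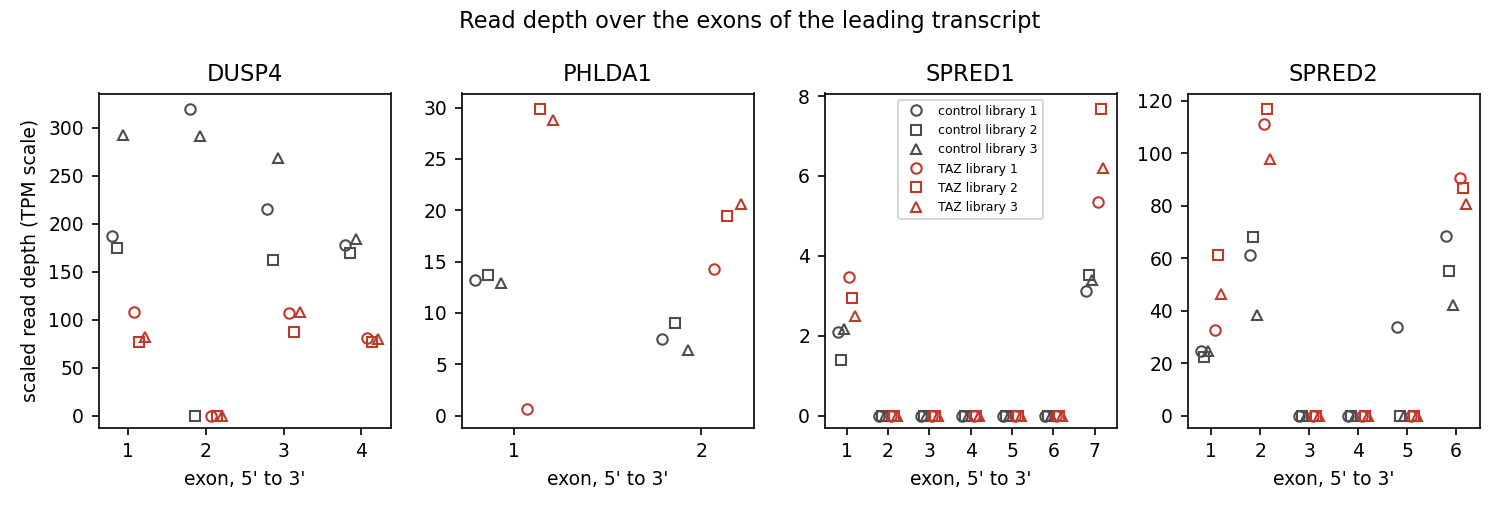
Read depth on the scaled TPM scale (y axis) over each exon of the leading transcript, numbered 5′ to 3′ (x axis), for DUSP4, PHLDA1, SPRED1 and SPRED2, with 1 symbol per library, grey for control and red for TAZ. The last exon separates the groups in all 4 genes, exons 2 to 6 of SPRED1 are listed at 0 in all libraries, and the first PHLDA1 exon is low in TAZ library 1, where a second transcript held most of the gene's TPM.

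Many short internal exons had no depth. Of 26 internal exons in the leading transcripts of the 10 members, 14 were listed at 0 in all 6 libraries and 6 more in some of them. All 5 internal exons of SPRED1, a gene with reads at both ends, were among the 14, so a 0 there need not mean that the exon was absent from the RNA. The last exon held 93.3% of the SPRED1 bases, 91.0% of the SPRED2 bases and 51.4% of the PHLDA1 bases in those transcripts. TPM divides by the full transcript length, so levels of members with such exons are low against those of members without them. The last SPRED2 exon (65537985 to 65541303) had 68.7, 55.1 and 42.0 in the controls, against 90.6, 86.7 and 80.6 in the TAZ libraries. In the files' annotation ETV5 overlaps DGKG on the same strand and ETV5-AS1 on the opposite strand, and SPRY4 and PHLDA1 have overlapping genes on the opposite strand. Whether strand was used in the counting the sources used here do not state, and reads shared by these pairs cannot be told apart.

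Other genes that restrain ERK and related kinases mostly did not pass. Of 7 tested MAP kinase phosphatases outside the set, 0 rose and 0 fell in limma with or without its trend and robust options. Their median log2 difference was -0.01, and 3 had an unadjusted limma p under 0.05. These unadjusted limma p-values ran from 0.00162 (DUSP16) to 0.0313 (DUSP2). For scale, SPRY1, at an unadjusted limma p of 0.0341, ranked 2738 of the 19390 tested genes by p. DUSP16, a phosphatase of JNK and p38, was at 29.6, 27.1 and 26.4 scaled TPM in the controls, against 15.1, 16.99 and 12.95 in the TAZ libraries, just outside the threshold (adjusted p = 0.0501), and DUSP10 was at 3.65, 4.17 and 2.38 and at 7.20, 7.51 and 8.70 (adjusted p = 0.0625). These 2 were picked after their values were seen, as the nearest to the threshold. DUSP16 passed as lower in 3 of 16 other settings: the filter at 5 TPM (adjusted p = 0.0477), FPKM (0.0477) and aligned bases (0.0296). DUSP10 passed as higher in 2, scaling on genes of at least 10 TPM (0.0421) and aligned bases (0.0438). DUSP14, the most abundant of the list, was at 137 ± 4.65 and 159 ± 11.2 (adjusted p = 0.494). Of 11 tested other negative regulators, 1 rose and 0 fell (median 0.18). RASA1, a GTPase-activating protein that turns RAS off, went from 3.74 ± 0.129 to 7.49 ± 0.833 (limma log2 difference 0.84 ± 0.16, adjusted p = 0.0453). However, RASA1 passed in only 6 of 16 other settings, and not with any 1 library left out (limma adjusted p = 0.0631 to 0.217). PEBP1, the RAF kinase inhibitor protein and the most abundant of these, was at 174 ± 131 and 194 ± 10.3 (adjusted p = 0.677). Its control values were 242, 23.0 and 257.5, so the control mean and SD rest on the low value of control library 2.

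No gene of the core cascade passed the test. Of 22 tested genes from RAS to the ribosomal S6 kinases, 0 rose and 0 fell in limma with or without its trend and robust options. The median log2 difference was 0.03. An unadjusted limma p under 0.05 was found for 5, a count to be read beside the rank of SPRY1 given above. In the other settings 0 rose, and 1 gene, ARAF, passed as lower, without TAZ library 1 only. MAPK3, the gene of ERK1, was at 36.2 ± 6.14 scaled TPM in the controls, against 37.7 ± 4.14 in the TAZ libraries (limma adjusted p = 0.882).

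Upstream of the cascade, 2 of 11 tested receptors and ligands rose and 0 fell (median 0.24), while 2.25% of all tested genes passed as higher. Without FGFR2, which was tested through the TAZ libraries, 1 of 10 rose, and the median was 0.22. Another 12 of the 23 listed, EGFR among them, were too low to be tested. HBEGF, a ligand of the EGF receptor family, had a log2 difference of 4.93 ± 0.14 (limma adjusted p = 7.48e-05). EGFR, its main receptor, was at 0.0182 scaled TPM on average in the controls, against 0.0924 in the TAZ libraries. The family member ERBB4 was at 0.0829 and 0.0444. ERBB2 was at 2.19 ± 0.0826 and 4.86 ± 2.26 (limma adjusted p = 0.283), and ERBB3 at 29.1 ± 18.4 and 19.9 ± 13.9 (adjusted p = 0.726). For both ERBB2 and ERBB3 the groups overlapped. FGFR2, a fibroblast growth factor receptor, was at 0.793 ± 0.0277 and 5.21 ± 0.535 (adjusted p = 0.00271), so that it reached the abundance needed for the test through the TAZ libraries. FGFR3, a receptor activated by translocation in part of myeloma, was at 57.9 ± 10.4 and 68.4 ± 11.3 (adjusted p = 0.580).

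Several other genes known to be induced by ERK rose. Of 12 tested, 6 rose and 0 fell, while 2.25% of all tested genes passed as higher. Another 6 of the 18 listed were too low to be tested. The list's median log2 difference was 0.98 against -0.05 over all tested genes. ETV4, EGR1, IER3 and MYC had differences below 0, and FOS and PHLDA2 above 0, without passing. Of the 6 that rose, ETV1 and EPHA2 had control means under 1 TPM and were tested through their rise. Without them 4 of 10 rose, and the median was 0.69. This list was written with earlier results of these data known, so the count is a description. KCNN4, a calcium-activated potassium channel, was at 4.49, 4.84 and 6.44 scaled TPM in the controls, against 46.99, 50.7 and 45.8 in the TAZ libraries (limma log2 difference 2.98 ± 0.18, adjusted p = 6.90e-04). The groups were far apart, and KCNN4 passed in 16 of 16 other settings, as did the immediate early gene IER2 (3.28 ± 0.40, adjusted p = 0.00851). HMGA2, an architectural chromatin protein, was at 59.9, 66.8 and 60.5 in the controls, against 111, 140.4 and 130.0 in the TAZ libraries (1.01 ± 0.16, adjusted p = 0.0256), and passed in 9 of 16 other settings.

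FOSL1, an AP-1 subunit, differed by 1.37 ± 0.16 (limma adjusted p = 0.00744). EPHA2, an ephrin receptor, differed by 1.37 ± 0.21 (adjusted p = 0.0203), and ETV1, a PEA3-group factor like ETV5, by 1.11 ± 0.19 (adjusted p = 0.0320). FOSL1 passed in 13 of 15 other settings, EPHA2 in 7 of 14 and ETV1 in 6 of 14. Neither EPHA2 nor ETV1 passed with the block or with any 1 TAZ library left out. ETV4, the remaining PEA3-group factor, did not pass: it was at 42.2 ± 11.7 in the controls, against 22.3 ± 3.50 in the TAZ libraries (adjusted p = 0.131). MYC, the most abundant gene of the list that did not pass, differed by -0.66 ± 0.24 (adjusted p = 0.231). The count of 6 was 5 without control library 3, 3 without control library 1, control library 2 or TAZ library 3, and 2 without TAZ library 2.

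Of 10 tested kinases of the neighbouring p38 and JNK branches, 0 rose and 1 fell (median -0.14). MAPK13, the delta form of p38, was at 132, 112 and 126 scaled TPM in the controls, against 57.03, 38.5 and 39.2 in the TAZ libraries, with no overlap (limma log2 difference -1.46 ± 0.21, adjusted p = 0.0146). It passed in 10 of 16 other settings, and not without control library 1 (adjusted p = 0.0539), control library 2 (0.0542), TAZ library 2 (0.0851) or TAZ library 3 (0.0746), where the list's count was 0. MAPK14, the alpha form, was at 31.4 ± 4.13 and 27.7 ± 1.69 (adjusted p = 0.618).

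**Figure D4:**
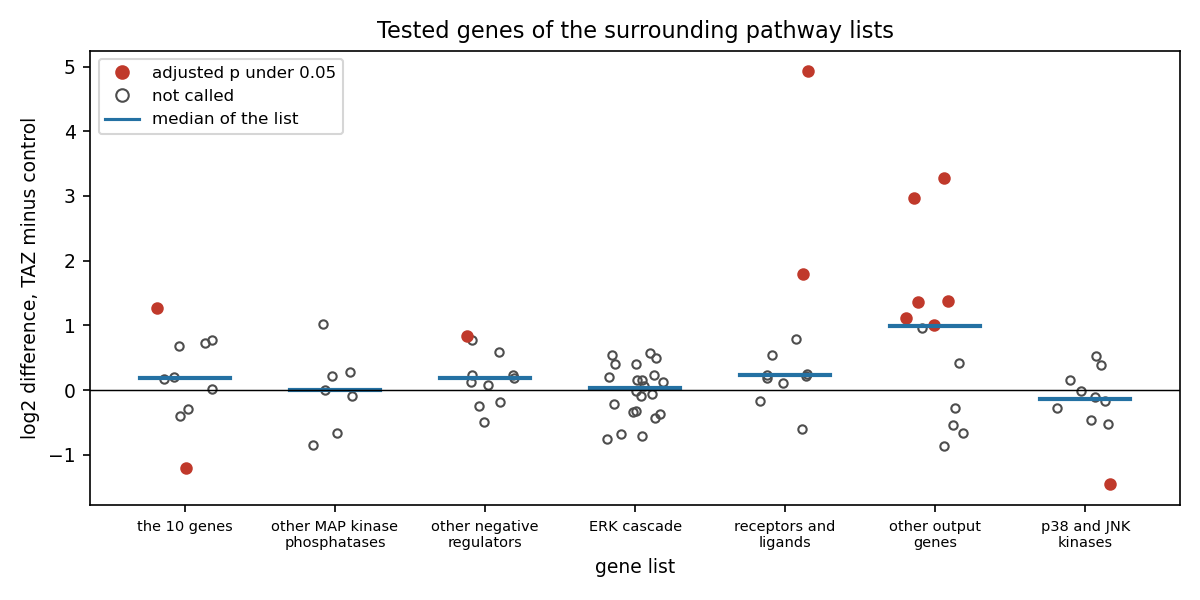
Log2 difference, TAZ minus control (y axis), of the 10 genes and of the tested genes of 6 surrounding lists (x axis), with 1 point per gene, red for adjusted p under 0.05 and blue lines for list medians. HBEGF at 4.93 is the highest point, the other output genes have a median of 0.98 (0.69 without ETV1 and EPHA2, which were tested through the TAZ libraries), and the ERK cascade holds no red point.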

How the data were processed

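The submitters' processing notes name STAR 2.3.0, Bowtie2 2.0.0, StringTie 1.3.3b and the build hg19. Per the file headers, StringTie ran once per library against a supplied annotation (release not given in the sources used here). The authors deposited TPM and FPKM per transcript and coverage (mean read depth per base) per transcript and exon. No read counts were used. Transcript TPM was summed per gene and divided by a median-of-ratios factor (28148 genes above 0 in all 6 libraries, factors 0.873 to 1.23). The test, for all genes averaging 1 TPM or more, was limma 3.58.1 (R 4.3.3) on the log2 of scaled TPM + 1 (eBayes with trend and robust, no block), a scale that understates changes of low genes. The procedure was also run on simulated data with independent normal noise. Those data hold no outlying library and no uneven transcript assignment, so that run does not check the calls made here. Aligned bases per library were recovered from the ratio of deposited coverage to FPKM. Figures were drawn with matplotlib 3.10.9.

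The members and lists were chosen with earlier results of these data known. All 10 members are named. Of each list, called genes are named (at most 6, by size) with the most abundant uncalled one. Alternatives varied scaling, pseudocount (0.1), filter (none, 5 TPM), unit, limma options, block and libraries. Aligned bases per gene was added after the data were seen. Promoter sequences are from RefSeq (GRCh38.p14), and transcript starts beside them from GENCODE 29, matched by transcript ID without version.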

Additional observations from a re-analysis of the deposited data

How the results depend on the processing

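Over 16 other settings DUSP4 stayed lower and PHLDA1 stayed higher in the TAZ libraries. The number of genes called, 623, was 352 with no filter on low values and 278 to 774 with 1 library left out. The count of members called higher was 2 with aligned bases per gene (PHLDA1 and SPRED1) and 0 to 1 with 1 library left out, and the count called lower was 0 to 1 with 1 library left out. The count of other output genes called higher was 3 with no filter, 3 with the filter at 5 TPM, where fewer of them were tested, and 2 to 5 with 1 library left out. Reversed signs were found for members near 0: DUSP6 was at -0.01 without control library 3 (-0.01 to 0.26 with any 1 library left out) and DUSP5 at -0.01 without TAZ library 1 (-0.01 to 0.03). Apart from the stricter filter the cause was not tested.

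The replicate numbers showed no visible pairing of the libraries: deviations of same-numbered libraries correlated at 0.004, -0.024 and -0.055. Control library 2 correlated best with TAZ library 3, but only at 0.07. With 3 libraries per group these values cannot exclude a pairing. With the replicate number as a block 236 genes were called, 0 members higher and 0 lower (PHLDA1 adjusted p = 0.0761, DUSP4 adjusted p = 0.0822, limma), and 2 other output genes higher. The median SE over the tested genes, 0.24 on the log2 scale, limits what 3 libraries per group can resolve.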
